A study of Mus musculus with 16 samples.

Results

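The data compare wild-type mouse splenic B cells, selected by B220, between the slides of one Agilent array experiment, with 4 arrays on slide 2 set against 4 arrays on slide 1. Each array took RNA of 1 sample labelled with the single dye Cy3. The 8 arrays were taken by their genotype label from the 16 of the series, and no measured value was used to choose them. Wild-type mice have the strain entry 129 on both slides, and the labels number them 2, 5, 6 and 8 on slide 1 and 1, 2, 3 and 5 on slide 2. The other 8 arrays, 4 on each slide, hold B cells of mice lacking the 3' regulatory region (3'RR), a group of enhancers at the end of the immunoglobulin heavy chain locus. Per the labels these mice carry a knockout of the 129 IgH allele on a BALBC background, with the strain entry BALBC, and they serve here only to show where the slide difference of wild-type cells was its own. In both genotypes the cells were purified with beads coupled to an antibody against B220, and the labels give 0.2 microgram of RNA with a RIN of 9 for every sample. Age is not given in the sources used here. The labels and the series text name spleen and bead purification, and they name no culture or stimulation step for either slide. They speak of 4 mice per genotype where 8 arrays per genotype were analysed, and nothing ties an array to a separate mouse, so the spread that p-values rest on here may be partly technical.

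Most B cells of the spleen are resting cells that recirculate between blood and lymphoid follicles, held there by homing receptors and by transcription factors such as Klf2 and Foxo1. When the antigen receptor, CD40 or a Toll-like receptor is engaged, B cells enlarge, take up amino acids and glucose, make ribosomes and lipids, replicate their DNA and divide. Activated cells can switch from IgM to another antibody class, and some become plasma cells that secrete antibody.

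Wild-type cells of slide 2 differed from those of slide 1 across most of the measured transcriptome. Of 22734 genes tested, 11061 (48.7%) were higher and 5735 (25.2%) lower on slide 2 at limma's adjusted p under 0.05, so 73.9% passed in either direction. The difference was at least 4-fold for 1976 genes that were higher (8.69%) and 1198 that were lower (5.27%), and the arrays of the slides did not overlap for 69.3% of genes. Pearson's r across genes was 0.983 to 0.997 for pairs of arrays on one slide and 0.895 to 0.916 for pairs on different slides, and genes are not independent replicates. The median difference over all genes was 0.35 on the log2 scale with each array scaled to its 75th percentile, and -0.03 with each array scaled to its median. With the first scaling 65.9% of calls were higher on slide 2, and with the second 47.7%, so small differences in either direction are to be read against that shift. More probes were well above background on slide 2, with 32683 ± 1097 (SD, n = 4) against 27063 ± 792 (SD, n = 4), for which an exact two-sided permutation test gave p = 0.0286, the smallest that 4 against 4 arrays allow. The 75th percentile signal was 576 to 768 on slide 1 arrays and 596 to 948 on slide 2 arrays. Each slide was scanned on a day of its own, wild-type arrays lay at positions 1 to 4 of slide 1 and 5 to 8 of slide 2, and the slides hold different samples, so slide, scan day, position and the state of the cells cannot be told apart.

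Ddx3y, a gene of the Y chromosome, read 0.00898, 0.0117, 6.49 and 6.00 times the array's 75th percentile signal on slide 1 arrays 2, 5, 6 and 8, and 4.64, 4.68, 4.36 and 3.27 on slide 2 arrays 1, 2, 3 and 5. All values per array below follow this order and this scale, and all differences are on the log2 scale, slide 2 minus slide 1, each with its standard error (SE) where given. Xist, the RNA that silences an X chromosome in females, read 1.34, 1.17, 0.0104 and 0.0898 on slide 1 and 0.00497, 0.00644, 0.00571 and 0.00659 on slide 2. Slide 1 arrays 2 and 5 thus had Xist and no Ddx3y well above background, and the 6 other arrays had Ddx3y, so the numbers 2 and 5 do not mark the same mice on the slides. Without slide 1 arrays 2 and 5, which leaves slide 1 arrays 6 and 8 against slide 2, 10718 genes were higher and 5489 lower on slide 2.

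Genes of cell division were higher on slide 2 as a whole. All 52 measured genes of the mitosis list passed as higher, 51 of them by at least 4-fold, with a median difference of 3.28. Cdk1, the kinase that drives entry into mitosis, read 0.206, 0.302, 0.328 and 0.197 on slide 1 and 6.65, 5.99, 6.36 and 7.50 on slide 2. Ccnb1, the cyclin that activates Cdk1, read 0.864, 1.23, 1.31 and 0.880 on slide 1 and 19.8, 17.7, 19.2 and 20.6 on slide 2. For both genes every array of slide 2 lay above every array of slide 1, by 4.71 (SE 0.24, limma's adjusted p 4.48e-10) and 4.198 (SE 0.20, limma's adjusted p 2.08e-10) on the log2 scale. The spindle checkpoint kinases Ttk and Bub1 were higher by 4.18 and 4.04, the mitotic kinase Melk by 4.46, the kinesin Kif4 by 3.77, and Ube2c, which passes ubiquitin to the complex that ends mitosis, by 3.88. The summed signal of the list was 95.6 to 152 on slide 1 arrays and 935 to 981 on slide 2 arrays. As these are bulk samples, a larger share of dividing cells and more RNA per dividing cell cannot be told apart.

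**Figure D1:**
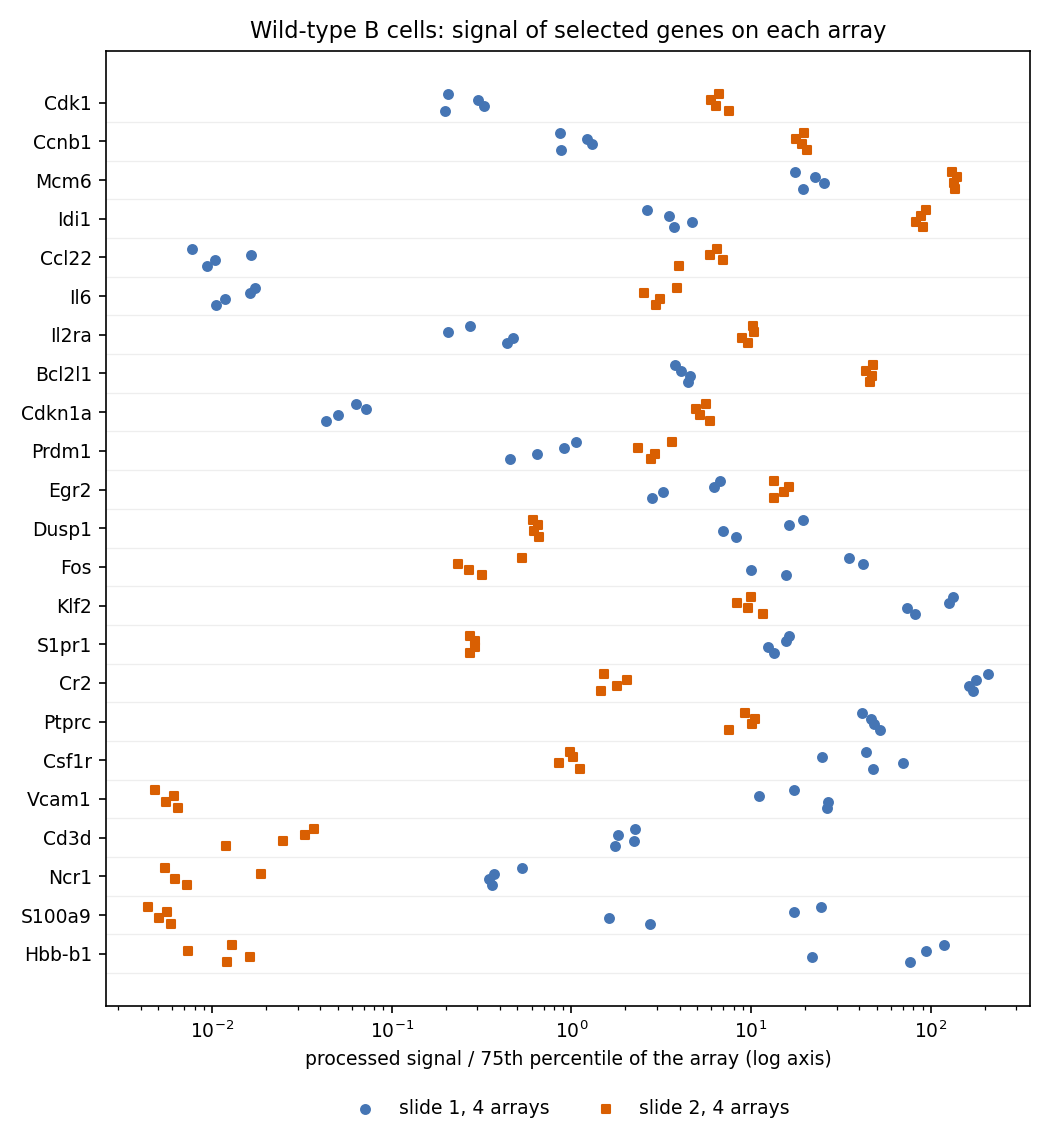
Signal of selected genes on each of the 8 wild-type arrays, as multiples of the array's 75th percentile signal on a log axis; circles are the 4 arrays of slide 1 and squares the 4 arrays of slide 2. Cdk1 to Prdm1 and Egr2 were higher on slide 2 and the other genes plotted were lower, with the widest gap between the slides' means for Hbb-b1.

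The promoters of mitotic genes are known to share elements for the factor NF-Y (CCAAT) and for the MuvB complex (TTTGAA, the cell cycle homology region). These elements were searched as exact letters on both strands in the 250 bases before each gene's start (RefSeq, GRCm38.p6). Of the 52 mitosis genes called higher, 42 matched the table, with 44 promoters. CCAAT stood in 77.3% of these promoters and in 33.8% of all 32851 promoters of the table, TTTGAA in 43.2% and 16%, and both together in 36.4% and 5.55%. The promoters of Cdk1 (chr10:69352913-69353162, minus strand), Ccnb2 (chr9:70421555-70421804, minus strand), Ube2c (chr2:164769679-164769928, plus strand) and Ccnb1 (chr13:100786487-100786736, minus strand) are shown as examples of genes that moved together, 5' to 3', with matches of CCAAT and TTTGAA on either strand in capitals. In Ube2c a pair of CCAAT matches on opposite strands overlaps, and in Ccnb1 TTTGAA has no match in this window.
Cdk1: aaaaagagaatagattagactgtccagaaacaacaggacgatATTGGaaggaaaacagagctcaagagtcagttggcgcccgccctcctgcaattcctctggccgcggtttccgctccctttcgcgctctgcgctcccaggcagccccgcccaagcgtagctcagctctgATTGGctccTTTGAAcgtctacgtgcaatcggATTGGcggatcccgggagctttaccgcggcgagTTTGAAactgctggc
Ccnb2: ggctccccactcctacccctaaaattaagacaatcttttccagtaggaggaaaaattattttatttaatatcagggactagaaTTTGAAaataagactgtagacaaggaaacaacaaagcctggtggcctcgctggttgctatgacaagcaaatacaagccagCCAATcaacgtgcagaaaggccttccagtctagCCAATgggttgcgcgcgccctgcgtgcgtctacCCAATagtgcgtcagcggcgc
Ube2c: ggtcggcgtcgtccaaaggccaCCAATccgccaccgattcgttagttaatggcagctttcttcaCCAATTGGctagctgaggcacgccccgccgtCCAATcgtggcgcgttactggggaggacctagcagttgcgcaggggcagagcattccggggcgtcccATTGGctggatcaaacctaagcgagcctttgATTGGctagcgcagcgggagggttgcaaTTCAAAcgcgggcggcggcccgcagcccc
Ccnb1: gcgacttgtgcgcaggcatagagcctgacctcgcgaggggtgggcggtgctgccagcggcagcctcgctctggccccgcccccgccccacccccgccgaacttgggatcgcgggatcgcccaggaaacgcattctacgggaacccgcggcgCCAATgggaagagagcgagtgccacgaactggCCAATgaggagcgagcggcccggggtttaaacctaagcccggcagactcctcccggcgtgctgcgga
CCAAT was frequent in other lists too, and stood in 77.3% of 22 promoters of cholesterol synthesis genes called higher, 60.4% of 53 of replication genes called higher and 50% of 26 of quiescence genes called lower. These matches describe the letters of the promoters and do not show that a factor was bound.

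Genes of DNA replication followed the same direction. Of 56 measured, 53 were higher and 1 lower on slide 2, with 30 higher by at least 4-fold and a median of 2.04. Mcm6, a subunit of the helicase that opens DNA at origins, read 17.5, 22.6, 25.4 and 19.5 on slide 1 and 131, 139, 135 and 136 on slide 2, and the slides did not overlap (difference 2.69, SE 0.16, limma's adjusted p 2.83e-09). Orc1, which marks origins, was higher by 4.14, the replication factor Mcm10 by 3.56, the polymerase epsilon subunit Pole2 by 3.92 and Rrm2, which makes deoxyribonucleotides, by 3.64. The 1 lower member was Cdt1, a loader of the helicase, with a difference of -0.26 that did not pass without slide 1 arrays 2 and 5 (-0.17, adjusted p 0.0788), and the polymerase delta gene Pold1 with 0.07 did not pass. Genes of the histones made during replication were higher in 30 and lower in 7 of 41 cases, and since these genes are near-identical copies, single members are uncertain. Replication genes are known targets of E2F factors, whose sites include TTTGGCGC and TTTCCCGC. The first stood in 4 (7.55%) and the second in 3 (5.66%) of 53 promoters of replication genes called higher, against 0.417% and 0.895% of all promoters, on either strand. The promoter of Mcm6 (chr1:128359706-128359955, minus strand), shown because it holds the first more than once, has both matches in capitals.
Mcm6: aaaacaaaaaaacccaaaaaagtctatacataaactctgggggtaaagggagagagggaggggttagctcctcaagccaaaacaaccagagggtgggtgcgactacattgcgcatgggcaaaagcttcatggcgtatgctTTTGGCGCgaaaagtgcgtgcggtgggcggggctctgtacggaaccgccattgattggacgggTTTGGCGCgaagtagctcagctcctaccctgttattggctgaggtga

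Genes that keep lymphocytes at rest were mostly lower on slide 2. Of 29 measured, 22 were lower and 2 higher, with a median of -0.96. Klf2, a transcription factor of resting, recirculating lymphocytes, read 134, 127, 73.6 and 81.9 on slide 1 and 10.01, 8.39, 9.58 and 11.7 on slide 2, which did not overlap (difference -3.35, SE 0.22, limma's adjusted p 7.24e-09). The related Klf4 was lower at -3.72, Tsc22d3 at -4.49, the G protein regulator Rgs2 at -5.14, the growth inhibitor Sesn1 at -3.29 and Foxo1 at -1.70. The higher members were Fam46c (1.84) and Slfn2 (0.72, and 0.34 with adjusted p 0.0806 when arrays were scaled to their median), and Foxo3 with -0.45 did not pass.

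Genes of ribosome assembly, many of them known targets of Myc, were higher in 48 of 52 cases and lower in 0, with a median of 0.87. Pno1, an assembly factor of the small ribosomal subunit, differed by 2.33, the nucleolar protein Nop58 by 1.77, the pyrimidine synthesis enzyme Cad by 1.62 and Srm, which makes spermidine, by 1.61. Myc itself differed by 0.01 (SE 0.21, limma's adjusted p 0.978) and did not pass, but without slide 1 arrays 2 and 5 it was higher on slide 2 by 0.42 (adjusted p 0.0318). The proteins of the ribosome itself gave another picture, with 22 of 76 higher, 1 lower and a median of 0.07. That direction depends on the scaling, since with each array scaled to its median 0 were higher and 48 lower, and the median was -0.31. It depends on single arrays as well. Without slide 2 array 5, 12 were higher and 15 lower, with array weights 15 and 14, and with quantile normalization 16 and 17. The count of higher members was 13 without slide 1 array 2 and 14 without slide 1 array 6.

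Immediate early genes, which are switched on within minutes of a stimulus, were more often lower than higher on slide 2. Of 39 measured, 23 were lower and 9 higher, with a median of -0.80. Fos, a subunit of the AP-1 factor, read 35.2, 41.9, 10.03 and 15.7 on slide 1 and 0.529, 0.233, 0.271 and 0.316 on slide 2. Dusp1, a phosphatase that turns MAP kinases off, read 19.4, 16.2, 6.98 and 8.24 on slide 1 and 0.611, 0.649, 0.616 and 0.660 on slide 2. Both were high on every slide 1 array and highest on arrays 2 and 5, and the slides did not overlap (differences -6.10, SE 0.41, limma's adjusted p 7.98e-09 and -4.19, SE 0.27, limma's adjusted p 4.95e-09). Fosb was lower at -6.05, Jun at -2.93, Dusp6 at -3.59, Nr4a1 at -2.90 and Klf6 at -2.95 on the log2 scale. Not all members moved this way. Egr2, a factor induced by the antigen receptor, read 6.75, 6.21, 3.23 and 2.82 on slide 1 and 13.4, 16.3, 15.2 and 13.4 on slide 2, higher on slide 2 by 1.71 (SE 0.27, limma's adjusted p 4.20e-05), and the slides did not overlap. Ier3 (3.51), Dusp4 (2.10), Fosl2 (1.65) and Atf3 (1.59) were higher too, while the early activation marker Cd69 (-0.58) did not pass with all arrays and was lower without slide 1 array 6 (-0.87, adjusted p 0.00592) or 8 (-0.75, adjusted p 0.0342). The cAMP response element TGACGTCA stood in 11.8% of 17 promoters of the lower members and in 1.55% of all promoters. The promoter of Dusp1 (chr17:26508473-26508722, minus strand) is shown with its match in capitals.
Dusp1: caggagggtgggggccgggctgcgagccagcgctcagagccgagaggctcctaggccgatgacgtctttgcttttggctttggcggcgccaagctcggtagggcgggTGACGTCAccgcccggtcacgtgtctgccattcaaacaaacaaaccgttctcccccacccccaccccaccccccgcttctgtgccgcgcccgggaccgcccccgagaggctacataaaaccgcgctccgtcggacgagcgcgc

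Surface molecules of activated B cells and T cell partners were higher in 23 and lower in 9 of 38 cases, with a median of 0.88. These shares of 60.5% and 23.7% stand beside 48.7% and 25.2% of all genes, so the list as a whole lay not far from the background. Cd70, the ligand of CD27 and a marker of recently activated B cells, read 0.05005, 0.0912, 0.0298 and 0.0449 on slide 1 and 10.3, 12.3, 10.8 and 14.7 on slide 2. Il2ra, the alpha chain of the interleukin 2 receptor, read 0.273, 0.205, 0.474 and 0.437 on slide 1 and 10.2, 10.3, 8.95 and 9.62 on slide 2. In both cases all slide 2 arrays lay above all slide 1 arrays, with differences of 7.91 (SE 0.53, limma's adjusted p 7.09e-09) and 4.90 (SE 0.27, limma's adjusted p 1.16e-09). The costimulatory ligand Tnfsf9 was higher by 4.26, the death receptor Fas by 3.30, the transferrin receptor Tfrc by 2.47 and the amino acid transporter subunit Slc7a5 by 2.47. Tnfrsf8, known as CD30, was at least 11.8-fold higher and Tnfsf4, known as OX40 ligand, at least 11.8-fold higher (limma's adjusted p 7.74e-09 and 3.18e-06), as neither was well above background on any slide 1 array. Such a bound sets the mean of the bright arrays against the dim arrays, each taken at its weakest signal that was well above background, or at the probe's own signal where that is higher. Lower members included Icosl (-5.55), Plaur (-5.34), Cd38 (-4.83) and Cd200 (-2.77), while Cd40 (-0.13), Cd80 (0.27) and Il4ra (1.81) did not pass. With the mean over a gene's probes in place of the brightest, Cd80 and Il4ra passed as higher, by 1.52 and 1.86.

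Secreted signals were divided. Of 26 cytokine and chemokine genes, 12 were higher and 10 lower (46.2% and 38.5%, against 48.7% and 25.2% of all genes). The median was 0.52, or 0.38 with dim members at their bound. Ccl22, a chemokine that attracts T cells, read 0.00779, 0.0165, 0.0104 and 0.00937 on slide 1, where no array was well above background, and 6.48, 5.93, 6.99 and 3.96 on slide 2. Il6, a cytokine that B cells make on activation, read 0.0173, 0.0163, 0.0118 and 0.0106 on slide 1, again without an array well above background, and 3.86, 2.55, 3.096 and 2.95 on slide 2. Ccl22 was at least 133-fold and Il6 at least 72.0-fold higher on slide 2 (limma's adjusted p 1.00e-12 and 1.14e-09). The growth factor gene Vegfa (5.52), Ebi3 (4.68), which encodes a subunit of interleukins 27 and 35, Ccl17 (3.29) and Il10 (2.84) were higher as well. Cytokines known from other cells lay on the other side, with Ifng lower at -4.41, Xcl1 at -3.50 and Il1b at least 20.7-fold lower, and so did lymphotoxin beta, Ltb (-1.88), which B cells make.

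Feedback genes of NF-kappaB were higher in 15 and lower in 8 of 29 cases (51.7% and 27.6%, against 48.7% and 25.2% of all genes). Their median of 0.27 lay below that of all genes and became -0.11 with each array scaled to its median, so the list as a whole has no settled direction. Traf1 (2.06), Nfkb2 (1.39) and Tnfaip3 (1.38), which encodes the inhibitor A20, were higher, and Nfkbid (-2.78) and Nfkbiz (-2.72), which encode nuclear I-kappaB proteins, were lower. Toll-like receptors and their signalling genes were lower in 15 and higher in 5 of 26 cases, with Tlr1 lower at -2.10, Tlr2 at -1.76 and Unc93b1, which carries receptors to endosomes, at -1.51. Tlr7, a receptor for single-stranded RNA, was higher by 0.69 but not past the threshold when arrays were scaled to their median (0.31, adjusted p 0.0625), and Tlr9, a receptor for bacterial DNA, differed by -0.05 and did not pass.

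**Figure D2:**
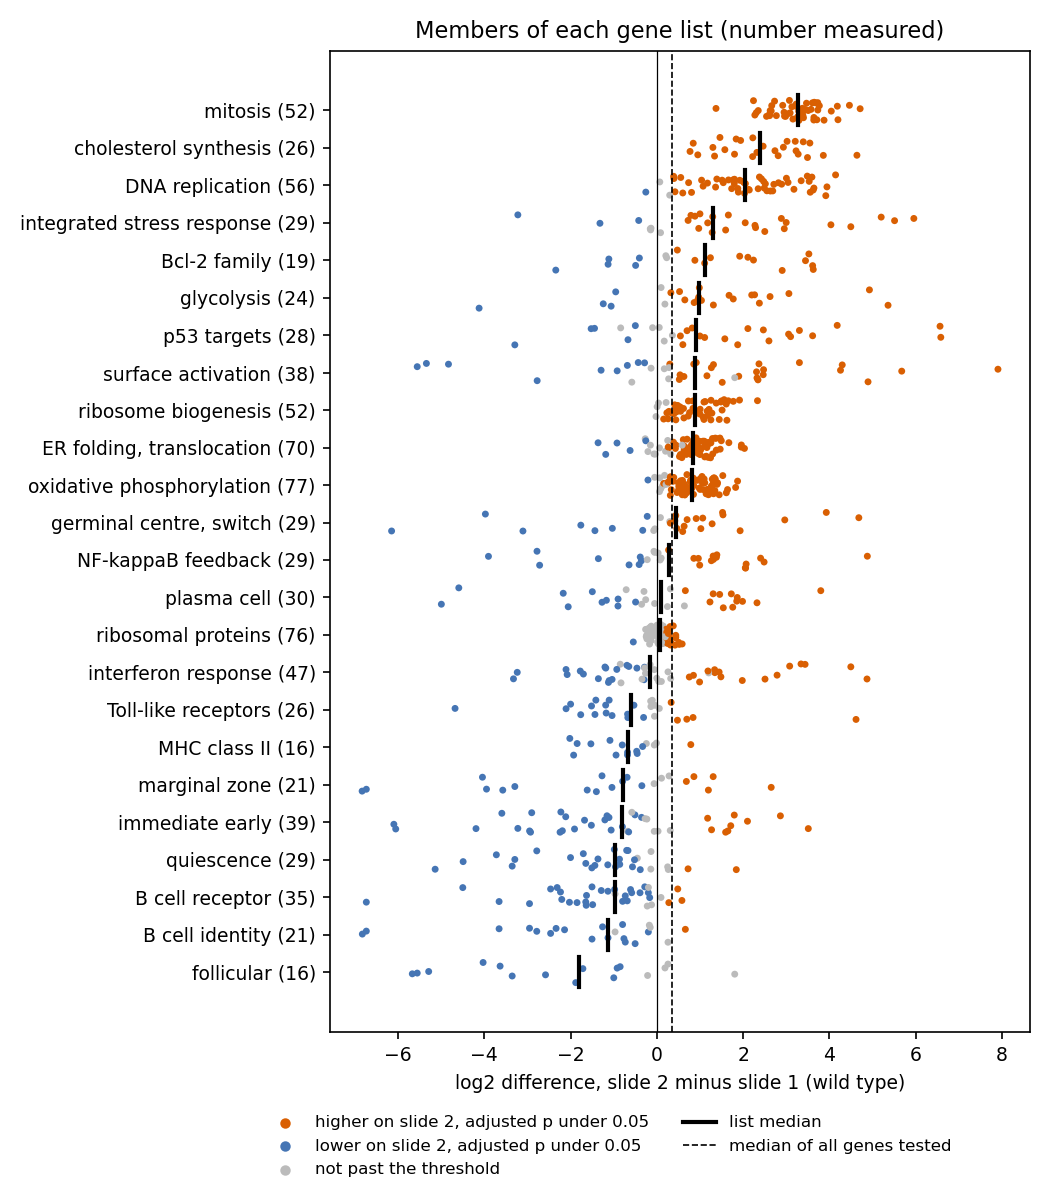
Log2 difference of slide 2 minus slide 1 in wild-type cells for every measured member of 24 gene lists, which leave out markers of other cell types and of transitional B cells among others, coloured by call; bars are list medians and the dashed line is the median of all genes at 0.35. All 52 mitosis genes lie right of 0 and of the dashed line, and of the lists plotted the follicular, B cell identity and B cell receptor lists have the lowest medians.

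Genes of class switching and the germinal centre reaction did not move as a block. Of 29 measured, 17 were higher and 8 lower, and the median was 0.44. These shares of 58.6% and 27.6% lie near the 48.7% and 25.2% of all genes. With each array scaled to its median, 11 were higher. Batf, a factor needed for switching, was higher by 2.97 (SE 0.14, limma's adjusted p 2.45e-10), and the DNA repair genes Exo1, Msh6 and Apex1 were higher by 3.93, 1.52 and 1.93. Genes typical of germinal centre B cells were lower, with Rgs13 at -6.15, Nuggc at -3.97, Gcsam at -3.10, Bcl6, the master factor of these cells, at -1.76 and S1pr2, which confines them, at -1.44.

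Probes of the heavy chain constant genes were fitted with all 32874 kept probes, of which 47.7% were higher and 25.3% lower on slide 2. The epsilon probe, for the heavy chain of IgE (mm9, chr12:114509504-114509563), read 0.464, 0.842, 0.511 and 0.175 on slide 1 and 85.0, 73.9, 77.2 and 93.6 on slide 2. All slide 2 arrays were higher, by 7.57 (SE 0.33, limma's adjusted p 1.39e-10). An unnamed probe 3' of it (mm9, chr12:114507471-114507530) was at least 58.0-fold higher on slide 2. The 2 probes of gamma 1, for the heavy chain of IgG1, disagreed, with differences of 2.26 (limma's adjusted p 0.00127) and -0.30 (limma's adjusted p 0.599). The second read 17.5, 74.7, 14.5 and 6.57 on slide 1 and 15.9, 14.7, 15.4 and 15.1 on slide 2, so its slide 1 arrays were spread on both sides of those of slide 2.

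The other gamma classes were lower on slide 2. The gamma 3 probe read 18.5, 17.2, 15.7 and 12.8 on slide 1 and 4.07, 3.91, 4.15 and 4.58 on slide 2, the IgG2a probe 128, 400.1, 104 and 63.1 and 13.6, 8.17, 10.3 and 14.1, and the probe described as gamma polypeptide 51.7, 242, 34.7 and 27.2 and 9.47, 5.84, 7.47 and 8.21. None of these overlapped between slides, and the differences were -1.93, -3.59 and -2.94 (limma's adjusted p 1.24e-06, 4.21e-06 and 2.31e-04). The gamma 2C probe differed by -1.64 (limma's adjusted p 0.0163), a call that was lost without slide 1 array 5 (difference -1.14, adjusted p 0.0578). Farthest 3', past epsilon, lie 3 probes named Igh-VJ558, which were lower at -7.43, -6.40 and -6.11. Which gene of the locus these probes and the probe named Ighv14-2 read is not settled, so their values are given under the names of the array design alone. The names are those of variable genes. By position (mm9) the probe named Ighv14-2 (chr12:114654277-114654336) lies between the gamma 3 and mu constant probes. On slide 1 the signal of the Igh-VJ558 probes was higher on arrays 2 and 5 than on arrays 6 and 8. The probe with the difference of -6.40 read 428, 497, 66.1 and 103 there. The mu probe, for the heavy chain of IgM, read 203, 206, 239 and 274 on slide 1 and 254, 199, 234 and 246 on slide 2, which overlapped, and its difference of 0.02 (SE 0.21, limma's adjusted p 0.935) did not pass. On the 3' side of mu, a probe named Ighv14-2 read 87.5, 110.3, 111 and 100.3 on slide 1 and 2.03, 3.01, 2.63 and 2.55 on slide 2, lower at -5.33 (SE 0.14, limma's adjusted p 1.76e-12). Of the light chains, the kappa constant probe differed by -0.18 and did not pass, and the pair of lambda 2 probes was lower at -0.61 and -0.81. Constant and variable genes of the locus are close relatives, so part of a signal may come from a related gene.

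**Figure D3:**
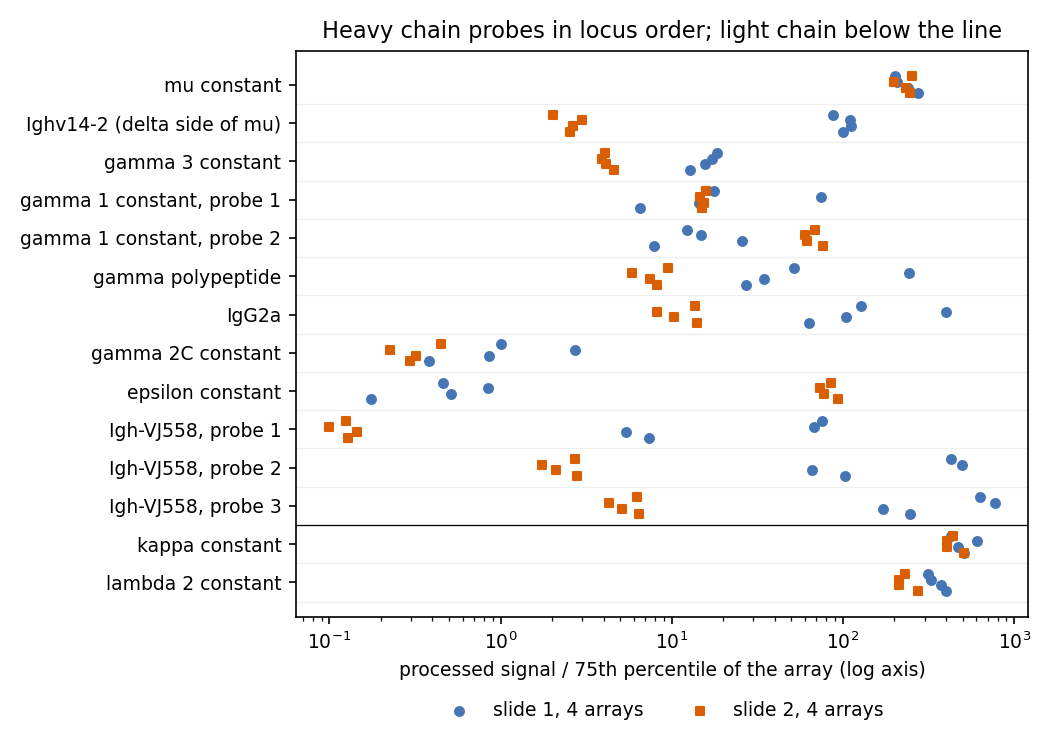
Signal of immunoglobulin probes on each wild-type array, as multiples of the array's 75th percentile signal on a log axis, with heavy chain probes ordered from mu towards the 3' end of the locus and light chain probes below the line. The epsilon probe was higher on all 4 arrays of slide 2, the gamma 3, IgG2a and Igh-VJ558 probes were lower, and the mu and kappa probes overlapped between slides.

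Plasma cell genes were split, with 12 higher and 10 lower of 30 (40% and 33.3%, against 48.7% and 25.2% of all genes). Their median of 0.10 became -0.28 with each array scaled to its median. Prdm1, the factor Blimp-1 that directs plasma cell formation, read 1.06, 0.907, 0.642 and 0.453 on slide 1 and 3.62, 2.34, 2.92 and 2.78 on slide 2, which did not overlap (difference 1.99, SE 0.34, limma's adjusted p 9.36e-05). Xbp1, the factor that expands the secretory apparatus, was higher by 1.73, the elongation factor Ell2 by 1.76 and the homing receptor Ccr10 by 3.80. Among markers of mature plasma cells, Sdc1, known as CD138, was lower at -1.27 and Tnfrsf17, the survival receptor BCMA, at -2.05. The probe of Mzb1, fitted with the immunoglobulin probes, was higher by 1.31 (limma's adjusted p 8.26e-07). Irf4 (-0.26) and the joining chain gene Igj (-0.71) did not pass. Igj was lower without slide 1 array 6 (-0.86, adjusted p 0.0355) or 8 (-0.82, adjusted p 0.0478). Genes of protein entry and folding in the endoplasmic reticulum were higher in 55 and lower in 5 of 70 cases, with a median of 0.85. Among them the folding factors Sdf2l1 and Manf were higher by 2.03 and 1.96, and the translocon subunit Ssr3 by 1.96.

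Genes of energy and lipid metabolism were higher on slide 2. For cholesterol synthesis, 26 of 26 measured genes were higher, with a median of 2.39. Idi1, an isomerase of the pathway, read 2.65, 3.50, 4.66 and 3.72 on slide 1 and 94.4, 87.9, 82.4 and 90.5 on slide 2, which did not overlap (difference 4.64, SE 0.20, limma's adjusted p 1.16e-10). The pathway enzymes Fdps and Cyp51 were higher by 3.86 and 3.55. Genes of the respiratory chain and ATP synthase were higher in 69 of 77 cases and lower in 1, with a median of 0.82. Their differences were small beside those above, with Cox7c, a subunit of cytochrome oxidase, at 1.87 and cytochrome c, Cycs, at 1.64.

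Glycolysis genes were higher in 18 and lower in 4 of 24 cases. Slc16a3, which exports lactate, read 0.317, 0.380, 0.354 and 0.215 on slide 1 and 13.5, 11.4, 10.68 and 15.9 on slide 2, which did not overlap (difference 5.36, SE 0.33, limma's adjusted p 3.59e-09). The enzyme genes Hk2, Pgk1 and Tpi1 were higher by 3.06, 2.62 and 2.38, and Hk3, a hexokinase of myeloid cells, was lower at -4.12. Known targets of hypoxia factors were higher in 13 and lower in 4 of 21 cases (61.9% and 19%, against 48.7% and 25.2% of all genes), with Egln3 at 4.16, Adm at 4.76 and Ak4 at least 50.5-fold higher, and Hif1a itself lower at -1.35. Genes of the integrated stress response, which answers a lack of amino acids or unfolded proteins, were higher in 22 and lower in 3 of 29 cases. The arginine transporter gene Slc7a3 was higher by 5.96, Chac1 by 4.50, Trib3 by 4.03 and the serine synthesis enzyme Psat1 by 3.00, while the factors Atf4 (-0.15) and Ddit3 (-0.14) did not pass.

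Known targets of p53 were higher in 18 and lower in 5 of 28 cases, or 64.3% and 17.9%, where 48.7% and 25.2% of all genes were. Cdkn1a, the cell cycle inhibitor p21, read 0.0637, 0.0723, 0.0505 and 0.0432 on slide 1, well above background on 2 of 4 arrays, and 5.58, 4.92, 5.21 and 5.91 on slide 2, which did not overlap (difference 6.58, SE 0.26, limma's adjusted p 4.15e-11). Phlda3 was higher by 6.56 and the death gene Bbc3, known as Puma, by 3.61, and Sesn1 was lower, as given among the genes of resting cells. Of 19 genes of the Bcl-2 family, which set the threshold of cell death, 12 were higher and 5 lower, shares of 63% and 26% that lie near the 48.7% and 25.2% of all genes. Bcl2l1, which encodes the survival protein Bcl-xL, read 3.79, 4.08, 4.60 and 4.44 on slide 1 and 47.7, 43.4, 47.1 and 45.8 on slide 2, which did not overlap (difference 3.45, SE 0.083, limma's adjusted p 6.26e-13). The death genes Bcl2l11, known as Bim, and Pmaip1, known as Noxa, were also higher, by 2.91 and 2.11, and Bcl2 was lower at -1.13.

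Genes that define B cells remained well above background but were mostly lower on slide 2. All 21 measured genes of the identity list were well above background on all 8 arrays, 16 were lower and 1 higher, with a median of -1.13. Ptprc, the gene of B220, the antigen used for purification, read 41.3, 46.5, 48.4 and 52.0 on slide 1 and 9.24, 10.5, 10.2 and 7.54 on slide 2, which did not overlap (difference -2.34, SE 0.12, limma's adjusted p 5.45e-10). The factors Ebf1 and Bach2 were lower at -2.14 and -2.78, the kinase Blk at -2.95 and Fcrla at -6.83, while Cd22 (-0.97), an inhibitory coreceptor, did not pass. In a fit of the 8 wild-type arrays alone Cd22 passed (adjusted p 9.03e-05). Pou2af1, a coactivator of antibody genes, was the 1 higher member (0.66).

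Receptors of the resting follicular B cell were among the lower genes. None of 16 measured genes of the follicular list was higher, where 48.7% of all genes were, and 12 were lower, with a median of -1.80. S1pr1, which guides exit from lymphoid tissue, read 16.3, 15.6, 12.5 and 13.3 on slide 1 and 0.274, 0.292, 0.289 and 0.273 on slide 2. Cr2, the complement receptor CD21 of mature B cells, read 208, 178, 164 and 172 on slide 1 and 1.52, 2.05, 1.8 and 1.46 on slide 2. All slide 2 arrays were below all slide 1 arrays for both, with differences of -5.67 (SE 0.17, limma's adjusted p 4.50e-12) and -6.73 (SE 0.14, limma's adjusted p 1.31e-13). The homing receptor Itgb7 was lower at -5.29 and the chemokine receptor Ccr6 at -2.58. Marginal zone genes were lower in 13 and higher in 5 of 21 cases, with Cd1d1 at -3.57, Dtx1, a Notch target, at -4.04 and Hes1, another, at least 30.2-fold lower. Genes of B1 cells were lower in 9 and higher in 5 of 19 cases. Genes of transitional and immature B cells were lower in 9 and higher in 3 of 14 cases, with Dntt, an enzyme of antigen receptor assembly, at -3.29.

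Antigen receptor signalling genes were lower in 27 and higher in 3 of 35 cases, with a median of -0.98. The kinases Lyn and Syk were lower at -2.31 and -2.20, the adaptor Bank1 at -3.66 and the inhibitory Fc receptor Fcgr2b at -4.50. Genes of MHC class II, the molecules that show peptides to T cells, were lower in 12 and higher in 1 of 16 cases, with H2-Oa at -2.02 and H2-Aa at -1.53. The higher member was Ciita (0.79), the factor that drives these genes, and H2-DMa (-0.01), which loads peptides, did not pass.

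Interferon response genes were divided, with 16 higher and 18 lower of 47 and a median of -0.16. The shares were 34% and 38.3%, against 48.7% and 25.2% of all genes. Ifit1 read 0.102, 0.0733, 0.0717 and 0.183 on slide 1 and 2.64, 3.62, 3.35 and 2.26 on slide 2, and the related Ifit3 1.40, 0.982, 0.923 and 2.08 on slide 1 and 0.119, 0.155, 0.128 and 0.142 on slide 2. The first was higher by 4.87 (SE 0.39, limma's adjusted p 4.73e-08) and the second lower at -3.24 (SE 0.43, limma's adjusted p 9.45e-06), with no overlap between slides in either. Isg15 and the RNA sensor gene Ifih1 were higher by 3.34 and 4.50, and Ifi44 and Samd9l were lower at -3.32 and -2.08.

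Most markers of macrophages, NK cells, T cells and dendritic cells were lower on slide 2, and the macrophage list had the lowest median of all lists. Of 29 measured macrophage and monocyte markers, 27 were lower and 0 higher. Their median was -5.58, or -4.94 with dim members at their bound, and 12 of them were not well above background on any slide 2 array. The summed signal of the list was 146 to 304 on slide 1 arrays and 24.8 to 35.1 on slide 2 arrays. Csf1r, the growth factor receptor that macrophages need, read 43.7, 24.8, 70.5 and 48.0 on slide 1 and 0.983, 1.02, 0.853 and 1.11 on slide 2, and Vcam1, an adhesion molecule of splenic macrophages and stroma, 17.4, 11.02, 26.9 and 26.6 on slide 1 and 0.00483, 0.00614, 0.00555 and 0.00643 on slide 2. The slides did not overlap for either, with a difference of -5.47 (SE 0.26, limma's adjusted p 2.47e-10) for Csf1r and a signal at least 729.8-fold lower for Vcam1 (limma's adjusted p 2.18e-11), which was not well above background on slide 2. Cd68 was lower at -1.97, Emr1, known as F4/80, differed by -0.29 and did not pass, though it did without slide 1 array 5 (-0.43, adjusted p 0.0188), and the complement gene C1qc and the iron exporter Slc40a1 were at least 329-fold and 569.7-fold lower.

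Red cell genes varied between arrays of slide 1. Hbb-b1, a beta globin, read 119, 94.0, 21.8 and 76.9 on slide 1 and 0.0129, 0.00737, 0.0164 and 0.0122 on slide 2, where no array was well above background, and was at least 2497-fold lower there (limma's adjusted p 3.06e-10). Hba-a1 and Hba-a2, alpha globins that are near-identical and cannot be separated with certainty, were lower at -10.29 and -9.64. In the erythroid list 11 were lower and 4 higher of 23, and its summed signal was 248 to 986 on slide 1 arrays and 74.8 to 94.95 on slide 2 arrays. Globins made up most of that sum on slide 1, so the sum does not speak for the other members. Hba-a2 alone read 458, 359, 96.8 and 261 on slide 1 and 0.286, 0.261, 0.393 and 0.353 on slide 2. Neutrophil markers were lower in 10 and higher in 2 of 16 cases. The lower ones numbered 8 without slide 1 array 2 or 5 or slide 2 array 5, 7 without slide 1 arrays 2 and 5 together or with array weights, and 6 of 11 with a filter on wild-type arrays. S100a9, a calcium-binding protein of these cells, read 24.6, 17.4, 1.62 and 2.73 on slide 1 and 0.00443, 0.00562, 0.00505 and 0.00590 on slide 2. Its slide 1 signal was higher on arrays 2 and 5 than on arrays 6 and 8, and all exceeded slide 2, which was at least 250.1-fold lower (limma's adjusted p 1.77e-07). S100a8 was at least 43.1-fold lower, and Ly6g was higher by 0.91.

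Of 21 T cell markers, 17 were lower and 1 higher, with a median of -2.48, or -2.16 with dim members at their bound. Cd3d, a chain of the T cell receptor complex, read 2.27, 1.81, 2.22 and 1.74 on slide 1 and 0.0371, 0.0329, 0.0249 and 0.0120 on slide 2, which did not overlap (difference -6.34, SE 0.29, limma's adjusted p 1.99e-10). Cd3g was at least 22.6-fold lower and Cd3e, which passed with -0.58, did not without slide 2 array 3 (-0.48, adjusted p 0.058). The higher member was Thy1 (4.70), and with it the summed signal of the list was higher on slide 2, from 69.7 to 105 against 48.6 to 58.4. NK cell markers were lower in 14 and higher in 2 of 17 cases, and 8 were not well above background on any slide 2 array. Ncr1, a receptor of NK cells, read 0.533, 0.373, 0.348 and 0.361 on slide 1 and 0.00546, 0.0186, 0.00624 and 0.00725 on slide 2 and was at least 15.1-fold lower, Klrd1 was at least 28.1-fold lower, and Klrb1c, well above background on 1 of 4 slide 2 arrays, was lower at -3.89. Of 16 dendritic cell markers 12 were lower, among them Clec9a at least 13.4-fold, and 4 were higher, among them Flt3 (3.18) and Zbtb46 (3.20, well above background on 1 of 4 slide 1 arrays). The part of cells of other types in the slide difference was not tested.

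**Figure D4:**
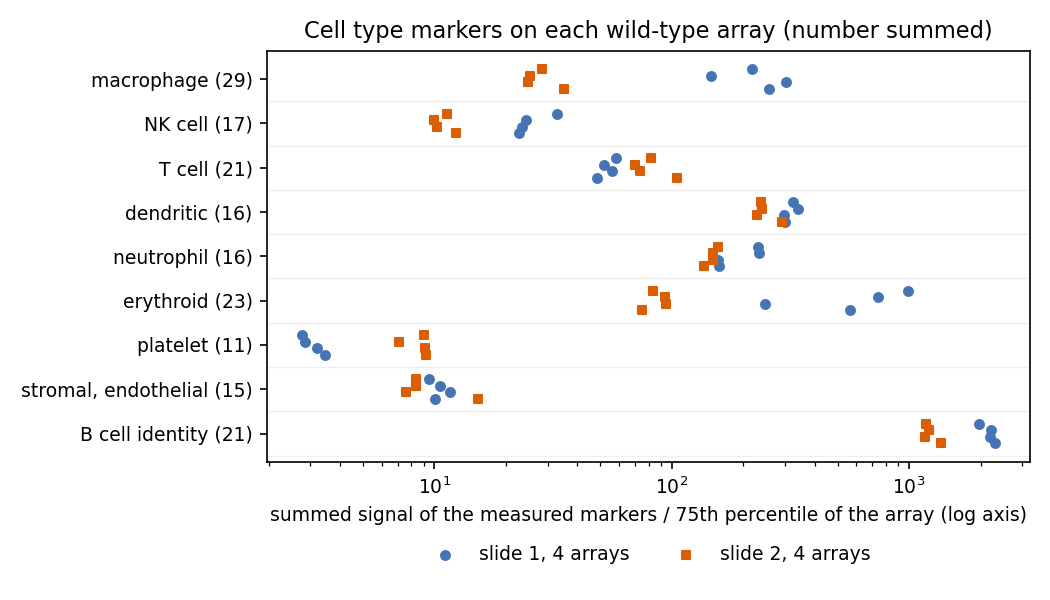
Summed signal of the measured markers of 8 other cell types and of B cell identity genes on each wild-type array, as multiples of the array's 75th percentile signal on a log axis. The 4 squares of slide 2 lie left of the 4 circles of slide 1 for macrophage, NK cell, erythroid and B cell identity genes, and by a small margin for dendritic and neutrophil genes, right of them for T cell and platelet genes, and overlap with them for stromal genes. Globins made up most of the erythroid sum on slide 1.

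The genes with the largest differences that met the naming rule, with official symbols and slides that did not overlap, came from these groups and from others. Among the higher ones, Htr7, a serotonin receptor, read 0.0191, 0.0118, 0.0201 and 0.0150 on slide 1 and 32.8, 26.4, 30.4 and 27.3 on slide 2 and was at least 680.4-fold higher (limma's adjusted p 2.37e-10). The transcription factor Insm1 was higher by 8.38 and the signalling protein gene Wnt10b by 7.50. Bace2, a protease, Smarcd3, a subunit of a chromatin remodelling complex, Mgarp, Mfap5 and Oit3 were at least 75.3-fold, 57.7-fold, 53.1-fold, 46.3-fold and 37.6-fold higher. Among the lower ones, the beta globin Hbb-b2 was at least 1521-fold, the complement gene C1qa 241-fold, the ficolin gene Fcna 257-fold, the lectin gene Clec10a 108-fold and the ribonuclease gene Ear2 155-fold lower at least. All were well above background on the 4 arrays of the brighter slide. Some genes named with a fitted difference were well above background on only part of their dimmer slide, namely on 1 of 4 arrays for Insm1, Wnt10b, Egln3, Cd3d and Rgs13, 2 of 4 for Cd70, Ier3, Ttk and Hk3, and 3 of 4 for Ccl17, Vegfa, Orc1, Slc7a3 and Ifng. Of the genes named above as not passing, Atf4, Cd22, Cd40, Cd69, Ddit3, Emr1, Foxo3, H2-DMa, Igj, Irf4 and Tlr9 passed as lower when arrays were scaled to their median, and so did the kappa constant probe.

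Deficient cells on the same slides differed in the same direction for most genes called in wild-type cells. In them 76.1% of genes passed, 50.5% higher and 25.6% lower on slide 2, and 14382 genes passed in the same direction in both genotypes while 192 passed in opposite directions. The slide differences of the genotypes correlated across genes with Pearson's r = 0.899, without shared arrays but on shared slides, and genes are not independent replicates. Mitosis genes had a median of 3.28 in wild-type and 2.77 in deficient cells, DNA replication genes 2.04 and 2.08, cholesterol synthesis genes 2.39 and 2.84, and macrophage markers -5.58 and -5.53.

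The test of the difference between the genotypes' slide differences passed for 15.9% of genes, with 5.4% more positive and 10.5% more negative in wild-type cells. Ribosome assembly genes differed in 35 of 52 cases, all more negative in wild-type cells, whose median of 0.87 stood beside 1.35 in deficient cells. Myc itself differed by 0.01 in wild-type and 1.00 in deficient cells (limma's adjusted p of the difference 0.0343, between 0.0572 and 0.0649 without slide 1 array 5 or slide 2 array 1, 2 or 3). For Myc that value was 0.0995 with quantile normalization and 0.0623 with no filter. Respiratory chain genes were more negative in 30 of 77 cases and heat shock genes in 11 of 21. These counts moved with the processing and with single arrays. For ribosome assembly, respiratory chain and heat shock genes they were 18, 5 and 6 with quantile normalization, 25, 13 and 7 with no filter and 45, 68 and 14 with array weights. Of all genes, 4.57%, 4.08% and 18.1% were more negative under these settings, where 10.5% were in the main fit. That share was 7.03% to 11.3% when 1 wild-type array was left out. The counts are to be read against these shares. Leaving out 1 wild-type array gave 18 to 44 respiratory chain genes, the fewest without slide 2 array 1 or 3 (18 each), then slide 1 array 8 (19) and slide 1 array 6 or slide 2 array 2 (20 each), and 44 without slide 2 array 5. Without slide 1 arrays 2 and 5 there were 49. Heat shock genes numbered 7 without slide 2 array 1, 2 or 3. Plasma cell genes went the other way, with 12 of 30 more positive in wild-type cells, and 21 with array weights. Prdm1 was higher on slide 2 by 1.99 in wild-type and differed by 0.22 in deficient cells, Ccr10 by 3.80 and 0.69, Sdc1 by -1.27 and -3.39 and Tnfrsf17 by -2.05 and -6.18 (limma's adjusted p of the difference 0.0237, 0.00330, 0.00477 and 6.05e-04). Without slide 2 array 1 the value for Prdm1 was 0.0516. Cdkn1a was higher by 6.58 in wild-type and by 4.11 in deficient cells (limma's adjusted p of the difference 0.00125).

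Heavy chain probes differed between genotypes too, in mice that differ in this locus. The pair of gamma 1 probes changed by 2.26 and -0.30 in wild-type and by 7.94 and 4.16 in deficient cells (limma's adjusted p of the difference 6.07e-04 and 0.00227), and mu by 0.02 and -1.39 (0.00895). Globins were more negative in wild-type cells, with Hba-a1 at -10.29 against -4.89. The genes with the largest such differences by the naming rule were, besides globins, Klri2, Tcstv3, Aldh1a2, Ntn5, Dmrt2 and Dnm3 on the positive side, by 5.20, 5.19, 4.78, 4.35, 4.32 and 4.21. On the negative side they were Mpzl2 and Itln1, by -6.25 and -4.99. The slide differences of Klri2, Tcstv3 and Dmrt2 did not pass in wild-type cells (-0.37, -0.26 and 1.40). In deficient cells they were -5.57, -5.45 and -2.91. Klri2 and Tcstv3 were well above background on no wild-type array. Aldh1a2, Ntn5 and Dnm3 differed by 3.42, 4.76 and 1.34 in wild-type and by -1.36, 0.40 and -2.87 in deficient cells. Mpzl2 differed by 1.93 in wild-type and 8.17 in deficient cells, and Itln1 by -3.83 and 1.16. These are fitted values and no bounds, as some of these genes were not well above background in a group. Ntn5 did not pass when any 1 of the wild-type arrays was left out (adjusted p 0.0564 to 0.0742), with quantile normalization (0.0538) or with no filter (0.0761). Dmrt2 did not pass with quantile normalization (0.0536), normexp background correction (0.0543) or dim spots at a floor (0.102). Genotype and strain entry go together in all samples, so these values compare the mice as labelled and not the deletion alone.

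**Figure D5:**
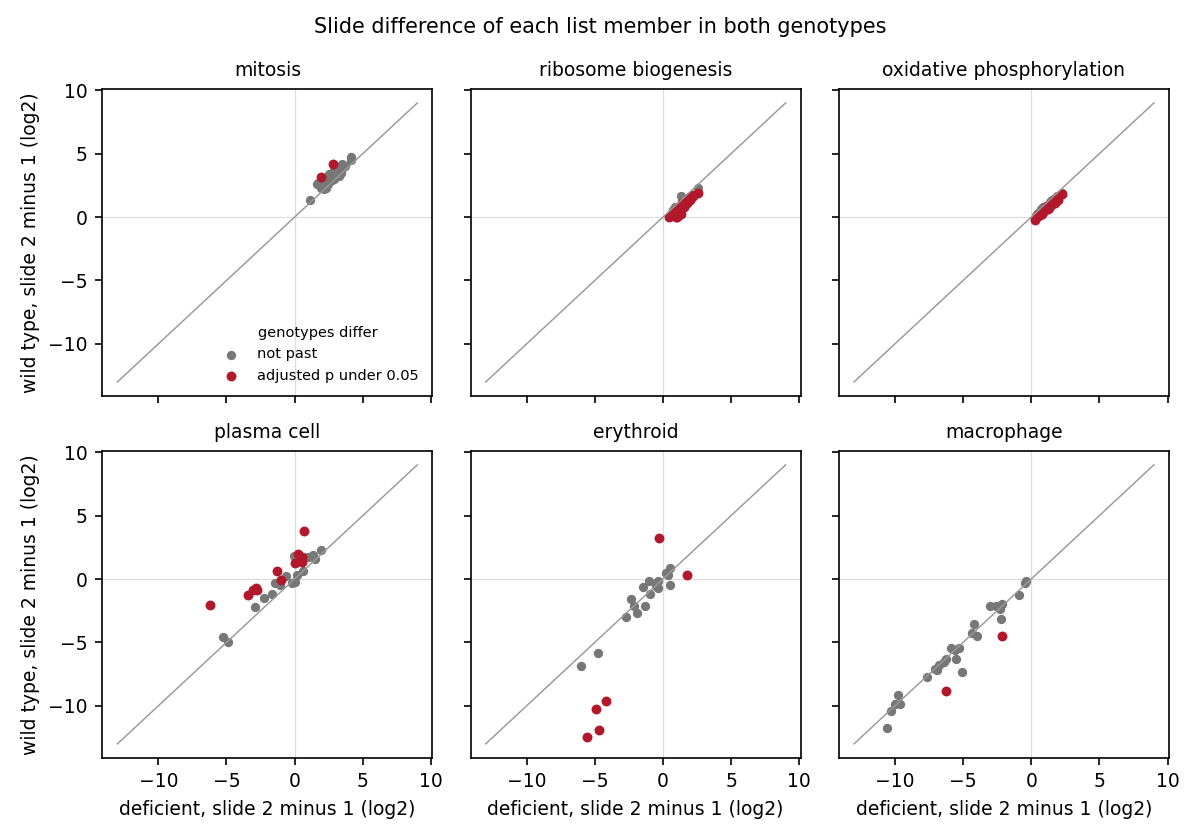
Log2 slide difference of each measured member of 6 gene lists in deficient cells (horizontal axis) and wild-type cells (vertical axis), with the line of equal differences; red points passed the test of the difference between genotypes. Mitosis genes and macrophage markers lie along the line, with 2 red points each, ribosome biogenesis and oxidative phosphorylation genes lie on or below it, and plasma cell genes on or above it.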

How the data were processed

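The deposited files hold the spot intensity of each array as the authors' scanner software wrote it. Agilent Feature Extraction 10.7.3.1 was used, per the file headers, and signals were subtracted for local background and detrended within each array, with surrogates for dim spots and no normalization between arrays, and coordinates follow mm9. The submitters' processing notes name limma, with no version or role. The authors' deposited table of processed values was not used, because it was scaled within each slide.

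Each array holds 62976 spots, of which 3671 are controls and were left out of the scaling and the fits. Gene names are those of the slide 2 files, since 2201 spots carry another name on slide 1, and they can be old. Signals were taken as log2 processed intensity relative to the 75th percentile of the array, with a mean over repeated spots, and 315 probe values flagged as outliers by the scanner were left out. The filter asked for 4 of the 16 arrays well above background, which left 32874 probes, and the brightest probe stood for each of 22734 genes.

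One limma model (limma 3.58.1, R 4.3.3) of all 16 arrays with a mean for each of 4 groups of genotype and slide gave the wild-type slide difference and its difference from that of deficient cells, with Benjamini-Hochberg adjustment over all genes and a threshold of 0.05. It was tested on simulated data. Immunoglobulin probes were fitted with all kept probes. Gene lists are described by counts and medians without a test, and the comparison, its gene lists and the naming rule were chosen with earlier results of these data known. The rule takes the 12 genes of each direction with the largest wild-type difference that passed, were well above background on 4 arrays of the brighter slide, did not overlap and have an official symbol, up to 8 called members of a list in each direction, members that did not pass and have a clear role, 6 genes of each direction for the genotype comparison, the first 3 measured markers of each other cell type, and Ddx3y and Xist. Some genes that the rule would take are not reported here. Promoters come from RefSeq (GRCm38.p6).

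Both wild-type groups carry the label numbers 2 and 5. Deviations of same-numbered arrays from their group means correlated with r = 0.0250 and 0.0582 across genes, and the numbers do not pair the arrays. Alternatives were median scaling, quantile normalization, normexp background correction with an offset of 50, no filter, the mean over probes, dim spots at a floor, array weights, another prior variance, the 8 wild-type arrays alone, a filter on them, a replicate block and leaving out each wild-type array. The number of arrays limits the precision.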

Additional observations from a re-analysis of the deposited data

Results flagged for a closer look

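Of 202 groups of 4 wild-type arrays, 10 were past Dixon's critical value, a rate near the 1 in 20 that chance flags. Many of these groups share arrays and genes. The values below are therefore listed as observed and do not set an array apart from its slide. On slide 1, array 2 had the lowest summed signal of endoplasmic reticulum genes, 1095.0 against 1229 to 1256 on the other arrays, of glycolysis genes, 978.5 against 1159 to 1180.0, and of replication histone genes, 1341 against 1957 to 2095. The same array had the highest summed signal of pancreas genes, 4.72 against 1.10 to 1.24, and of Ncr1, 0.533 against 0.348 to 0.373. On slide 2, array 5 had a 75th percentile signal of 596 against 890 to 948 on the others, and the highest sums of surface activation genes, 815 against 719 to 731, and of stromal markers, 15.3 against 7.61 to 8.40. Slide 2 array 2 had the lowest sums of mitosis genes, 935 against 978 to 981, and of platelet markers, 7.12 against 9.01 to 9.19.

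The wild-type slide difference minus that of deficient cells passed limma's test in the main fit for the named genes below, each a log2 value. Many of them are the results already given above. Myc, Ntn5, Dmrt2 and Prdm1 did not pass under some alternatives, as given there. It was positive for Aldh1a2 (4.78), Ccr10 (3.11), Cdkn1a (2.47), Dmrt2 (4.32), Dnm3 (4.21), Igj (2.14), Klri2 (5.20), Ntn5 (4.35), Phlda3 (2.56), Prdm1 (1.77), Sdc1 (2.12), Smarcd3 (2.20), Tcstv3 (5.19) and Tnfrsf17 (4.13). It was negative for Fcrla (-2.40), Hba-a1 (-5.40), Hba-a2 (-5.44), Hbb-b1 (-6.86), Hbb-b2 (-7.23), Itln1 (-4.99), Mpzl2 (-6.25) and Myc (-0.996). Among immunoglobulin probes it was 4.84 for the unnamed probe 3' of epsilon, -5.69 and -4.46 for gamma 1, -1.39 for gamma 3, -1.60 for the probe named Ighv14-2 and 1.41 for mu. Values of genes not well above background in a group are fitted and are no bounds.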

How the results depend on the processing

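The counts of genes higher and lower on slide 2 stayed within 1.5 times under the alternatives run, except that 9287 were lower with no filter on dim probes, where 34821 genes were tested. Without each wild-type array in turn, 10632 to 11006 genes were higher and 5508 to 5662 lower. Fitting the 8 wild-type arrays alone gave 10817 higher and 5701 lower. The replicate block, which compares arrays 2 and 5 of each slide by number only, gave 9787 higher and 5075 lower, and of 16796 genes called, 14146 were called in the same direction and 0 in the opposite one. Genes whose genotypes differed were less stable. Those more negative in wild-type cells numbered 1039 with quantile normalization, 1420.0 with no filter and 4118 with array weights, where 1978 were more positive. The 14 lists that lead the text, among them mitosis, replication, cholesterol synthesis, B cell identity and macrophage markers, kept their leading count within 1.5 times under every alternative. The wild-type difference of Dnm3 was 1.34 and -0.16 with dim spots at a floor, and that of Kdr was 0.72 and -1.10 with the mean over probes. For an unnamed probe between mu and the probe named Ighv14-2 it was 0.86, and -0.077 with normexp background correction. The cause of these changes was not tested. Leaving out slide 1 arrays 2 and 5 was chosen after seeing the data. Probes near background have only bounds, which limits 1893 genes that were dim on all slide 1 arrays and well above background on all slide 2 arrays, and 249 the other way.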

Other observations

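Other lists with values in wild-type cells were mixed. Heat shock genes were higher in 13 and lower in 5 of 21 cases (61.9% and 23.8%, against 48.7% and 25.2% of all genes). Their median was 0.41, and 0.03 with arrays scaled to their median, where 7 were higher. The chaperonin genes Hspe1 and Hspd1 were higher by 1.85 and 1.43, and Hspa1a, the stress-induced Hsp70, was lower at -3.21. Clock genes were lower in 9 and higher in 3 of 18 cases, with Nr1d2 lower at -3.03 and Nfil3, which encodes a repressor also known from immune cells, higher by 6.43. Known targets of glucocorticoids were higher in 7 and lower in 8 of 18 cases, with Sgk1 lower at -4.43 and the decoy receptor gene Il1r2 higher by 6.65.

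Few markers of rarer cells were measured. Of all genes, 48.7% were higher and 25.2% lower. The shares were 18.2% and 45.5% for platelet markers and 53.3% and 33.3% for stromal and endothelial markers. For markers of basophils, mast cells and eosinophils they were 33.3% and 50%, and for pancreas genes 30% and 20%. Platelet markers were higher in 2 and lower in 5 of 11 cases, with Pf4 lower at -1.58 and Gp1bb (0.46) and Itga2b (-0.33) not past the threshold. Stromal and endothelial markers were higher in 8 and lower in 5 of 15 cases, with Cdh5 lower at -3.44, Pecam1 lower at -2.26 and Kdr higher by 0.72, a gene whose probes disagree. Of 6 markers of basophils, mast cells and eosinophils 2 were higher and 3 lower, with Prg2 lower at -1.50 and Kit (-0.30) not past the threshold. Of 10 pancreas genes, which can mark tissue taken with the spleen, 3 were higher and 2 lower, with sums of 1.10 to 4.72 on slide 1 arrays and 1.31 to 1.49 on slide 2 arrays. Without slide 1 array 2, 6 of them were higher, and 1 with arrays scaled to their median, normexp background correction, dim spots at a floor or the replicate block.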
